A study of Mus musculus with 16 samples.

Results

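The Wnt pathway was read here through the RNA of 10 genes in blood-forming stem cells of young and old mice. They are Ctnnb1, which encodes beta-catenin, and 9 genes used as its readouts: Axin2, Lef1, Tcf7, Nkd1, Rnf43, Znrf3, Fzd7, Cd44 and Sox4. The genes were a given list, matched by symbol to a table of read counts for 14829 genes, and all 10 were present in it. Fresh marrow from 4 young and 4 old mice was kept at 37 °C for 1 hour with vehicle or with dmPGE2, and the stem cells were then sorted for RNA. dmPGE2 is prostaglandin E2 carrying methyl groups that slow its breakdown. Each mouse gave a vehicle and a dmPGE2 library, so there were 16 libraries in 4 groups of 4 (young vehicle, young dmPGE2, old vehicle and old dmPGE2). No allele, strain, exact age or sort gate is given in the sources used here, and the young and old mice differ only by that word. The sample descriptions carry 2 dates, called date 1 (mice 477, 478, 479 and 480) and date 2 (mice 483, 484, 485 and 486), each with 2 young and 2 old mice, and do not say what was done on them.

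In the canonical Wnt pathway, a Wnt ligand binds a Frizzled receptor with its LRP co-receptor and stops the destruction complex from marking beta-catenin for degradation. Beta-catenin then gathers in the nucleus and works with the DNA-binding factors of the TCF/LEF family on target genes, some of which feed back and damp the pathway. Because beta-catenin is controlled mainly as a protein, Ctnnb1 RNA alone does not report pathway activity, and target genes are used for that. Prostaglandin E2 has been reported to act together with Wnt signalling in stem cells, so the comparisons asked whether dmPGE2 or age changed these RNAs.

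Library totals ran from 12960704 to 19226963 counts. Levels are given in CPM, the usual read count unit scaled to library depth, here after TMM scaling between libraries, and levels of different genes are compared only as CPM per kilobase of exon. A count of 0 in a library is compatible with up to 3 counts, or 0.152 to 0.232 CPM depending on the library, which covers counting error only. A difference was called when the adjusted p of edgeR's quasi-likelihood test (Benjamini-Hochberg over all genes tested) was under 0.05, and errors of log2 fold changes are standard errors. The labelled cell type was checked with 14 stem cell markers, whose summed level was 3830 to 7060 CPM over the vehicle libraries. It was 5335 to 7060 CPM on date 1 and 3830 to 5730 CPM on date 2. The markers were thus present in every library, but their sum does not give the share of stem cells in it. Vehicle libraries of date 2 held more RNA of neutrophil markers than those of date 1. The summed level of 15 such markers was 130.4 to 304 CPM on date 1 and 2175 to 4627 CPM on date 2. Prtn3 made up most of the sum on date 1, with 204 ± 86.6 CPM there and 252 ± 52.2 CPM on date 2 (SD over libraries). Mpo was the largest part on date 2, with 5.55 ± 3.65 CPM on date 1 and 1459 ± 726 CPM on date 2. S100a8 had 0.816 ± 0.162 and 156 ± 38.3 CPM. In these bulk samples, fewer cells of a type and less RNA per cell cannot be told apart.

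The promoters of Lef1, Tcf7 and Sox4 are shown first, because these 3 readout genes had a called difference in some comparison below. Each run is from RefSeq on build GRCm38.p6, on the strand of the gene, and holds 250 bases before the start site in lower case and the 50 bases after it in capitals. Lef1 is at chr3:131110047-131110346 on the plus strand, Tcf7 (the window nearest the start of the gene as tabulated) at chr11:52282546-52282845 on the minus strand, and Sox4 at chr13:28953650-28953949 on the minus strand.
Lef1 promoter: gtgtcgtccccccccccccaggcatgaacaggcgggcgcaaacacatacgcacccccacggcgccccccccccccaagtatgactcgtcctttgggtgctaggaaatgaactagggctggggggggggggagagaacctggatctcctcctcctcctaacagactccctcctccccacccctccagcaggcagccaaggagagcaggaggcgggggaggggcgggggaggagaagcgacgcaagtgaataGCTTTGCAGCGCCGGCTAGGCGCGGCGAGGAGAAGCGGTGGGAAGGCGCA
Tcf7 promoter: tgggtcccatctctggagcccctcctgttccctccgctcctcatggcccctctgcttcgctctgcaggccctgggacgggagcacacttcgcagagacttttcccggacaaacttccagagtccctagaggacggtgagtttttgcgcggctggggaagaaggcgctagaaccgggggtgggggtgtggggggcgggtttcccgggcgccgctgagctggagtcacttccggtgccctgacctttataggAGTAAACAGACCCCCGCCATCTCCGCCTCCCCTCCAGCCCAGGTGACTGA
Sox4 promoter: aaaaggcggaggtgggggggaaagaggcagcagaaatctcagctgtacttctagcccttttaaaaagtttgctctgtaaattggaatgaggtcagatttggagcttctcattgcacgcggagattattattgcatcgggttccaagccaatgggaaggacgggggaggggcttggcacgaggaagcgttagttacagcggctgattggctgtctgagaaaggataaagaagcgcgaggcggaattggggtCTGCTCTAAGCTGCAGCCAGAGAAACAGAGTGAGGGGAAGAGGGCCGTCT

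RefSeq windows were found for 9 of the 10 genes, 15 windows in all, with none for Znrf3. The TCF/LEF core was searched as CTTTGAA or CTTTGAT on both strands and was in 0 of the 15 windows, against 8.65% of all 32851 mouse windows. The full cAMP response element, TGACGTCA, was in 0 of the 15 windows (1.79% of all windows). Its core, TGACG, which overlaps the full element, was in 1 window, of Ctnnb1 (20.8% of all windows). The absence of these letters from 300 bases says nothing about factors bound elsewhere. The windows printed for Lef1 and Tcf7 had 67.3% and 64.3% G and C, and that of Sox4 had 52%, beside a median of 52.7% over all windows.

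The 10 genes spanned a wide range of RNA levels, with beta-catenin at the top and its usual feedback readouts at the bottom. In the 8 vehicle libraries Ctnnb1 had 153.4 ± 13.5 CPM per kilobase (SD, n = 8 mice), a level above that of 96.8% of the genes in the table. Sox4, a transcription factor of stem and progenitor cells, followed with 74.7 ± 11.3 CPM per kilobase, above 91.9% of genes. Cd44, a surface receptor for hyaluronan, had 24.4 ± 3.22 CPM per kilobase (above 71.9%). The ranges of these 3 genes over the libraries did not touch, from 133.1 to 169.8 for Ctnnb1, 55.4 to 90.8 for Sox4 and 21.5 to 31.2 for Cd44, so their order held in every library. Fzd7, a Frizzled receptor, was next with 5.25 ± 1.10 CPM per kilobase.

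The neighbours below Fzd7 did not differ beyond their spread. Tcf7, which encodes the T cell factor TCF1, had 2.70 ± 2.62 CPM per kilobase, and Znrf3, a membrane ubiquitin ligase that removes Frizzled receptors, had 2.11 ± 0.618. Lef1, the second TCF/LEF factor of the set, had 0.653 ± 0.795, and Rnf43, the partner ligase of Znrf3, had 0.50 ± 0.581. For Tcf7, Lef1 and Rnf43 the SD was about as large as the mean. Tcf7 and Lef1 differed by date, while Rnf43 was not called by date (edgeR adjusted p = 0.0801). The order of Tcf7 and Znrf3 changed with the date. In mice 477, 478, 479 and 480 of date 1, Tcf7 had 0.341, 0, 0.872 and 0.221 CPM per kilobase and Znrf3 2.57, 0.815, 2.17 and 2.45. On date 2 Tcf7 had 4.10 to 6.57 and Znrf3 1.72 to 2.68, so the mean over both dates describes neither. Axin2, a scaffold of the destruction complex and the most widely used feedback readout, had 0.132 ± 0.107 CPM per kilobase, above only 5.10% of genes. Nkd1, a feedback inhibitor that binds Dishevelled, was the lowest with 0.0585 ± 0.086.

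**Figure D1:**
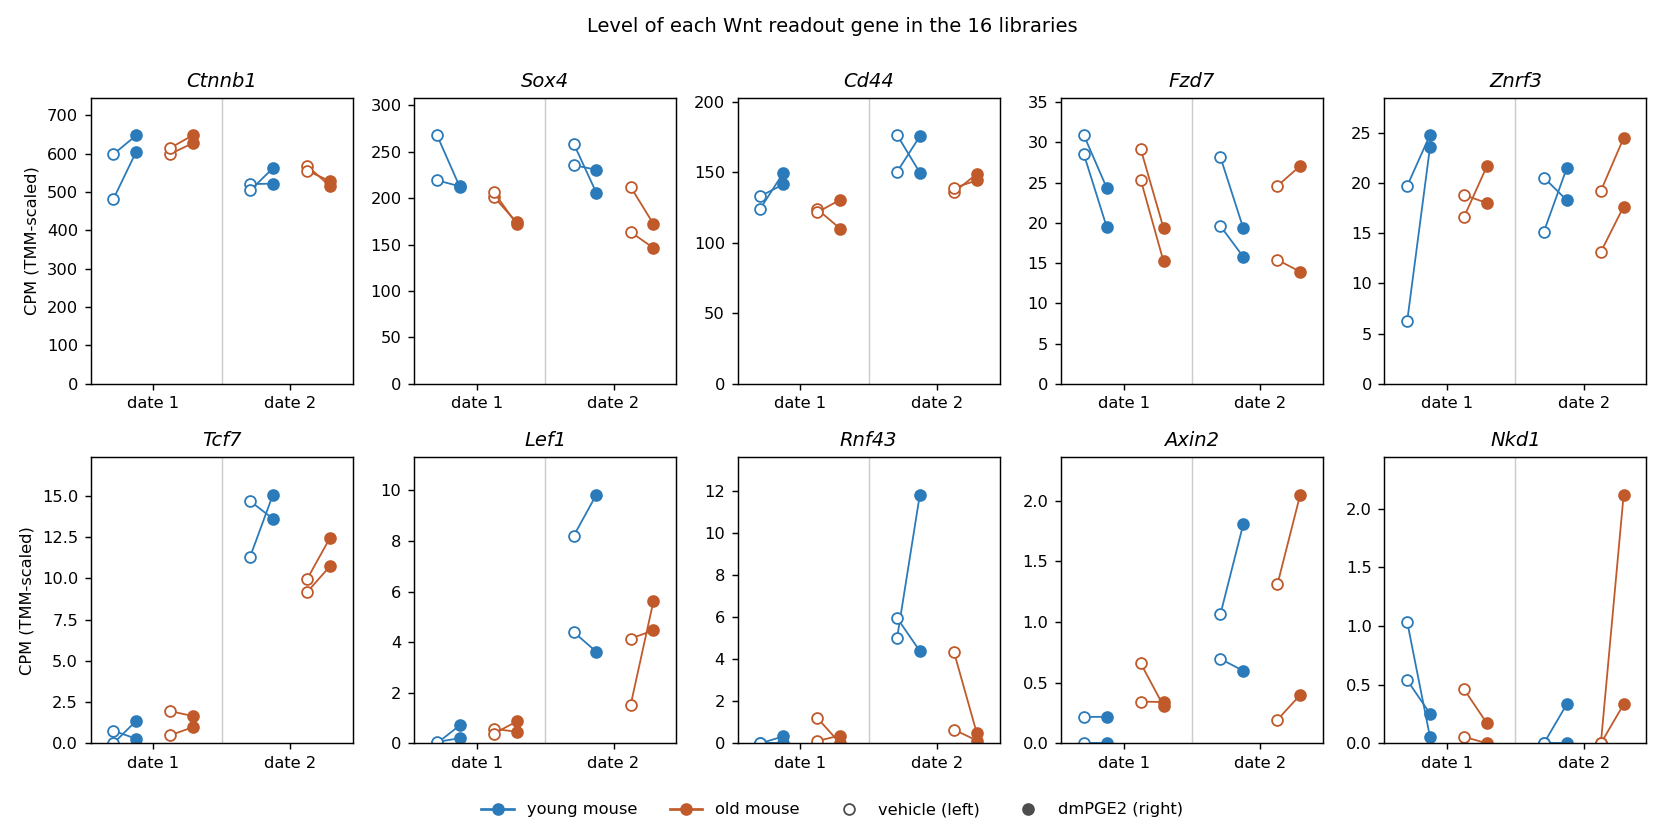
CPM of each of the 10 genes in the 16 libraries, with a line joining the vehicle (open, left) and dmPGE2 (filled, right) library of a mouse, blue for young and orange for old mice, by date. Sox4 is lower with dmPGE2 in all 8 mice and lower in old mice, and Tcf7 and Lef1 sit near 0 on date 1 and at 1.51 CPM or more on date 2. Each panel has its own axis from 0.

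In the table (mm10) Ctnnb1 lies at chr9:120933400-120960507, Sox4 at chr13:28950730-28953682, Cd44 at chr2:102811142-102901665 and Fzd7 at chr1:59482147-59486955. Tcf7 lies at chr11:52252604-52282571, Rnf43 at chr11:87663087-87735539, Axin2 at chr11:108920349-108950781 and Znrf3 at chr11:5276329-5444847, so that 4 of the 10 genes are on chromosome 11. Lef1 lies at chr3:131110297-131224357 and Nkd1 at chr8:88521344-88594887. Exons of 0 of the 10 genes overlap exons of another gene in the table. By whole spans, Tcf7 overlaps Gm1821 and Rnf43 overlaps 1110028F11Rik. Genes removed from the table upstream could not be checked, so the bearing of the unstated strand of counting was not fully tested.

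The first comparison asked whether 1 hour of dmPGE2 changed the readouts. Over all 8 mice, 0 of the 9 readout genes tested were called, against 0.610% of all 13942 genes (85 genes). Nkd1 did not pass the filter on low counts. Of the 9, 6 had a log2 fold change above 0 and 3 below, with a median of 0.071 beside -0.0039 over all genes. The cells did answer dmPGE2: Crem, a cAMP-induced transcription factor, rose 2.498-fold over all mice (log2 1.32 ± 0.19, adjusted p = 0.0142). That call was lost without mouse 477, 478, 479 or 480 (adjusted p = 0.0525 to 0.0688).

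Sox4 was the readout gene with the most even difference. On date 1 its vehicle and dmPGE2 levels were 268 and 212 CPM in mouse 477, 219 and 213 in mouse 478, 201 and 174 in mouse 479, and 206.5 and 172 in mouse 480. On date 2 they were 236 and 231 CPM in mouse 483, 259 and 206 in mouse 484, 163.5 and 146 in mouse 485, and 212 and 172 in mouse 486. The dmPGE2 library was the lower in 8 of 8 mice, although the 2 sets of libraries overlapped. Its fold change was -0.21 ± 0.05 on the log2 scale (95% interval -0.31 to -0.10), with an adjusted p of 0.078 by edgeR, so Sox4 was not called. DESeq2 put the same log2 fold change of -0.21 at an adjusted p of 0.00556. The value was alike in old (-0.23 ± 0.07) and young mice (-0.19 ± 0.07) and on date 1 (-0.21 ± 0.07) and date 2 (-0.20 ± 0.07).

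Fzd7, the Frizzled receptor of the set, was lower with dmPGE2 in 7 of 8 mice. Its vehicle and dmPGE2 levels were 30.9 and 24.4 CPM in mouse 477, 28.6 and 19.6 in mouse 478, 25.4 and 15.2 in mouse 479, and 29.2 and 19.4 in mouse 480. On date 2 they were 19.6 and 15.8 CPM in mouse 483, 28.2 and 19.3 in mouse 484, 24.6 and 27.1 in mouse 485, and 15.4 and 13.9 in mouse 486. On date 1 the vehicle libraries (25.4 to 30.9 CPM) all lay above the dmPGE2 libraries (15.2 to 24.4), while on date 2 they overlapped. Over all mice its log2 fold change was -0.38 ± 0.11 (-0.63 to -0.14, edgeR adjusted p = 0.171), which was not called. On date 1 it was -0.55 ± 0.14 (edgeR adjusted p = 0.0658), which limma-voom called (adjusted p = 0.0348), and on date 2 it was -0.21 ± 0.14. The difference between the dates was 0.34 ± 0.20 (adjusted p = 0.643).

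Znrf3, whose product clears Frizzled receptors from the membrane, went the other way in 6 of 8 mice. In mice 477, 478, 479 and 480 vehicle and dmPGE2 levels were 19.7 and 24.8, 6.24 and 23.6, 16.6 and 21.7, and 18.8 and 18.0 CPM. In mice 483, 484, 485 and 486 they were 20.5 and 18.3, 15.2 and 21.5, 19.2 and 24.5, and 13.1 and 17.6 CPM. The vehicle library of mouse 478 was the lowest of all 16, with 116 counts beside 464 with dmPGE2. Its log2 fold change was 0.45 ± 0.18 (0.05 to 0.85, edgeR adjusted p = 0.322), and leaving out 1 mouse at a time moved it between 0.25 and 0.59. On date 1 it was 0.63 ± 0.24 (adjusted p = 0.252). Without mouse 477, which left mouse 478 as the only young mouse of date 1, it was 1.04 there (edgeR adjusted p = 0.0418).

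Ctnnb1 itself had a small difference. On date 1 its vehicle and dmPGE2 levels were 599 and 648 CPM in mouse 477, 482 and 606 in mouse 478, 599.5 and 628 in mouse 479, and 615 and 649 in mouse 480. On date 2 they were 521 and 522 CPM in mouse 483, 504 and 562 in mouse 484, 568.5 and 516 in mouse 485, and 556 and 528.5 in mouse 486. The dmPGE2 library was higher in all 4 young mice and on date 1 in both old mice, and lower in both old mice of date 2. On average dmPGE2 changed it by a log2 value of 0.07 ± 0.04, without a call. The 95% interval of -0.019 to 0.16 bounds this average closely on both sides. In young mice the change was 0.15 ± 0.06 (edgeR adjusted p = 0.325) and in old mice -0.0097 ± 0.059 (adjusted p = 0.991). The age by dmPGE2 difference was -0.16 ± 0.08 (adjusted p = 0.753). On date 1 the change was 0.15 ± 0.05 (0.041 to 0.27, edgeR adjusted p = 0.19) and on date 2 -0.012 ± 0.051. The date by dmPGE2 difference was -0.17 ± 0.07 (edgeR adjusted p = 0.499).

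Cd44 was also held within narrow bounds. Its level ran from 122 to 176.5 CPM over the vehicle libraries (138.1 ± 18.2, SD, n = 8) and from 110.1 to 175.6 CPM over the dmPGE2 libraries (143.7 ± 18.6). Its log2 fold change was 0.06 ± 0.06 (-0.07 to 0.19, edgeR adjusted p = 0.751), and dmPGE2 was the higher in 6 of 8 mice. Over all mice, the intervals of Ctnnb1, Sox4 and Cd44 thus stayed within 0.31 of 0 on the log2 scale, while that of Fzd7 reached -0.63 and that of Znrf3 0.85.

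The low genes could not be bounded in this way. Lef1 had a log2 fold change of 0.82 ± 0.50 (-0.26 to 1.91) and Tcf7 one of 0.37 ± 0.40 (-0.50 to 1.23). On date 1 Lef1 had 2.01 ± 0.80 (0.26 to 3.76, edgeR adjusted p = 0.285), and on date 2 0.49 ± 0.55, without a call. Its vehicle counts on date 1 were 0, 1, 10 and 7 in mice 477, 478, 479 and 480. With dmPGE2 they were 13, 4, 8 and 14. Axin2 counts in mice 477, 478, 479 and 480 were 4, 0, 6 and 12 with vehicle and 4, 0, 6 and 5 with dmPGE2. In mice 483, 484, 485 and 486 they were 16, 9, 20 and 3 with vehicle and 26, 9, 30 and 6 with dmPGE2. By these counts Axin2 was higher with dmPGE2 in 3 mice, lower in 1 and equal in 4, with a log2 fold change of 0.18 ± 0.64 (-1.22 to 1.58, edgeR adjusted p = 0.949), and a change was not detectable at this depth. Without mouse 477, Tcf7 was called on date 1 (log2 3.88, edgeR adjusted p = 0.025), where the vehicle library of mouse 478 had 0 counts and its dmPGE2 library 27.

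Rnf43 was the most scattered of the tested genes. Its vehicle counts were 0, 0, 21 and 2 in mice 477, 478, 479 and 480 and 75, 77, 66 and 10 in mice 483, 484, 485 and 486. Its dmPGE2 counts were 6, 0, 0 and 6, then 170, 66, 7 and 2. Counts were lower with dmPGE2 in 3 of 4 old mice and higher in 2 of 4 young mice. Its log2 fold change was -2.29 ± 1.12 in old and 0.96 ± 1.08 in young mice, and the age by dmPGE2 difference of -3.24 ± 1.56 was not called (edgeR adjusted p = 0.740). Nkd1 had 19, 10, 8 and 1 counts with vehicle and 1, 5, 3 and 0 with dmPGE2 on date 1. On date 2 it had 0 counts in all 4 vehicle libraries and 0, 5, 31 and 5 counts with dmPGE2, of which the 31 are in mouse 485. These counts were too low to be tested.

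**Figure D2:**
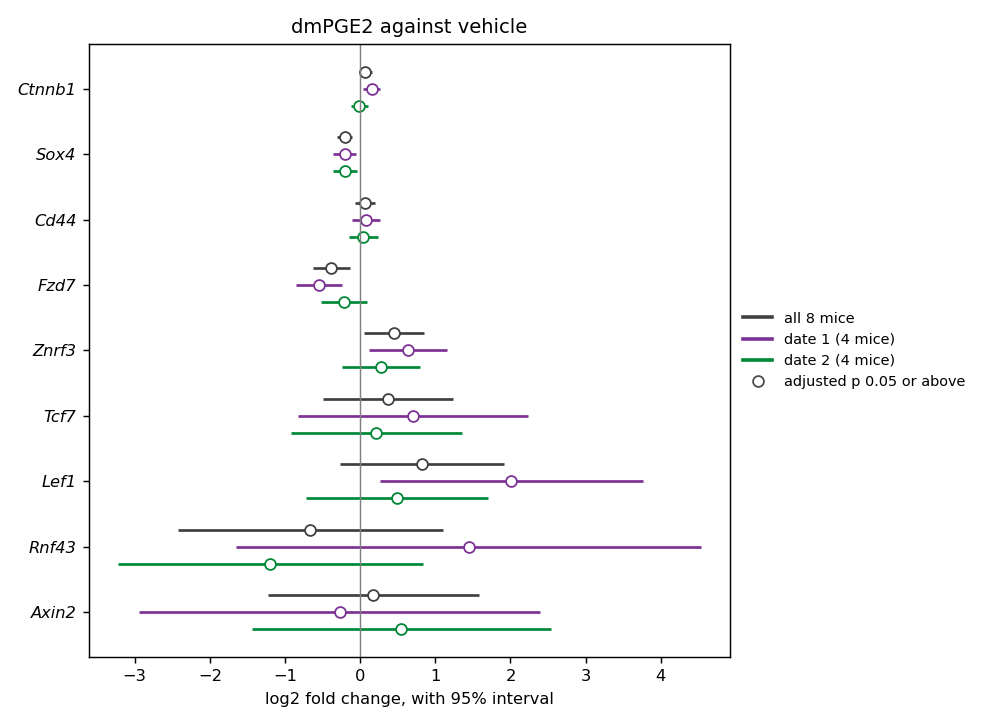
Log2 fold change of dmPGE2 against vehicle for the 9 tested readout genes, with 95% intervals, over all 8 mice (grey), on date 1 (purple) and on date 2 (green). No point passes an adjusted p of 0.05. The intervals of Ctnnb1, Sox4 and Cd44 are narrow and those of Rnf43 and Axin2 span several log2 units.

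Splitting by age or date called no further readout gene. In old mice, in young mice and for the age by dmPGE2 difference, 0 of 9 readout genes and 0% of all 13942 genes were called by edgeR. At an unadjusted p under 0.05 there were 1096, 1785 and 955 genes, DESeq2 called 114, 277 and 17 genes, and limma-voom 0, 0 and 0. An edgeR fit with a dmPGE2 term for each age and date called 210, 257 and 1 genes, and 0 readout genes. On date 1, 0 of 9 readout genes were called against 2.93% of all genes (2.42% higher and 0.502% lower). On date 2, 0 of 9 were called against 0.387% of all genes (0.366% higher), and for the date by dmPGE2 difference 0 of 9 against 1.08% (1.01% lower, meaning a smaller or more negative response on date 2). With 9 genes, shares this low make 0 an uninformative count.

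The rest of the pathway was examined through 6 lists of other Wnt genes. The counts of date 1 that follow stand beside 2.42% called higher and 0.502% lower over all genes. On date 1, 3 of 14 tested receptors and members of the R-spondin system rose: Fzd4, Fzd8 and Fzd9, all Frizzled receptors. Of 17 other reported Wnt targets, 5 rose: Vegfa and Plaur, the vascular growth factor and the urokinase receptor, Jun and Fosl1, subunits of AP-1, and Runx1, a blood transcription factor. None of 20 destruction complex and Dishevelled genes, 19 nuclear partners of beta-catenin, 9 inhibitors and 5 ligand and secretion genes was called there. The median log2 fold changes were 0.23, 0.19, 0.077, 0.038 and -0.082 for the first 5 of these lists in that order, beside -0.0039 over all genes. The 5 ligand genes had a median of 0.91 on date 1 and -0.26 on date 2, and the median gene of date 1, Wnt5b, had a standard error of 1.21. Over all 8 mice, 0 genes of any of the 6 lists were called in the fit with a dmPGE2 term for each age only. That fit takes no account of the difference in response between the dates, and Vegfa and Plaur were called higher on each date, as given below. With a term for each age and date, edgeR called 347 genes over all mice in place of 85. Calls within the lists are not given for that fit.

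Fzd4 rose on date 1 from 6.06 ± 1.45 to 39.4 ± 9.02 CPM (SD, n = 4 mice), 6.54-fold (log2 2.71 ± 0.20, edgeR adjusted p = 6.05e-06). Fzd8 rose from 29.0 ± 6.62 to 77.35 ± 7.51 CPM (2.72-fold) and Fzd9 from 10.45 ± 4.64 to 31.2 ± 7.99 CPM (3.12-fold). On date 2 the same receptors had 23.35 ± 9.04 and 29.1 ± 12.6 CPM (Fzd4), 52.8 ± 10.3 and 49.6 ± 12.4 CPM (Fzd8), and 19.3 ± 7.54 and 22.2 ± 8.72 CPM (Fzd9), and were not called. Fzd7, in contrast to these 3, had the negative value of -0.55 on date 1 given above. Their vehicle levels on date 2 were also above those of date 1. Neutrophil marker RNA differed between the dates as given above, and its part in these results was not tested.

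Vegfa rose 13.4-fold on date 1, from 9.775 ± 2.005 to 130.7 ± 27.4 CPM, and 1.91-fold on date 2, from 45.2 ± 12.1 to 87.0 ± 27.2 CPM. Plaur rose 9.75-fold on date 1 and 1.68-fold on date 2, where its call was lost without mouse 483 or 486 (adjusted p up to 0.127). Jun rose 1.81-fold on date 1. The calls of Vegfa and Plaur on date 2 and of Jun on date 1 were lost without the replicate block (edgeR adjusted p = 0.0919, 0.119 and 0.188). Fosl1 (3.10-fold) and Runx1 (1.31-fold) are named to complete the count after their values were seen. The Fosl1 call was lost without mouse 477, 479 or 480 and without the replicate block (adjusted p = 0.0545 to 0.165). The Runx1 call was lost without mouse 477, 478, 479, 480 or 484, with RLE size factors and without the replicate block (adjusted p = 0.0532 to 0.459). The response was smaller on date 2 by a tested difference for Vegfa (log2 -2.81), Plaur (-2.54), Jun (-0.86), Fzd4 (-2.42), Fzd8 (-1.55) and Fzd9 (-1.44). The call of that difference for Fzd9 was lost without mouse 478, 479, 480, 484 or 485. Nr4a1, an immediate-early gene, rose 68.7-fold on date 1, from 71.0 ± 36.1 to 4498 ± 1239 CPM (SD, n = 4 mice). On date 2 it rose 1.78-fold, from 1838 ± 529 to 3204 ± 492 CPM.

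**Figure D3:**
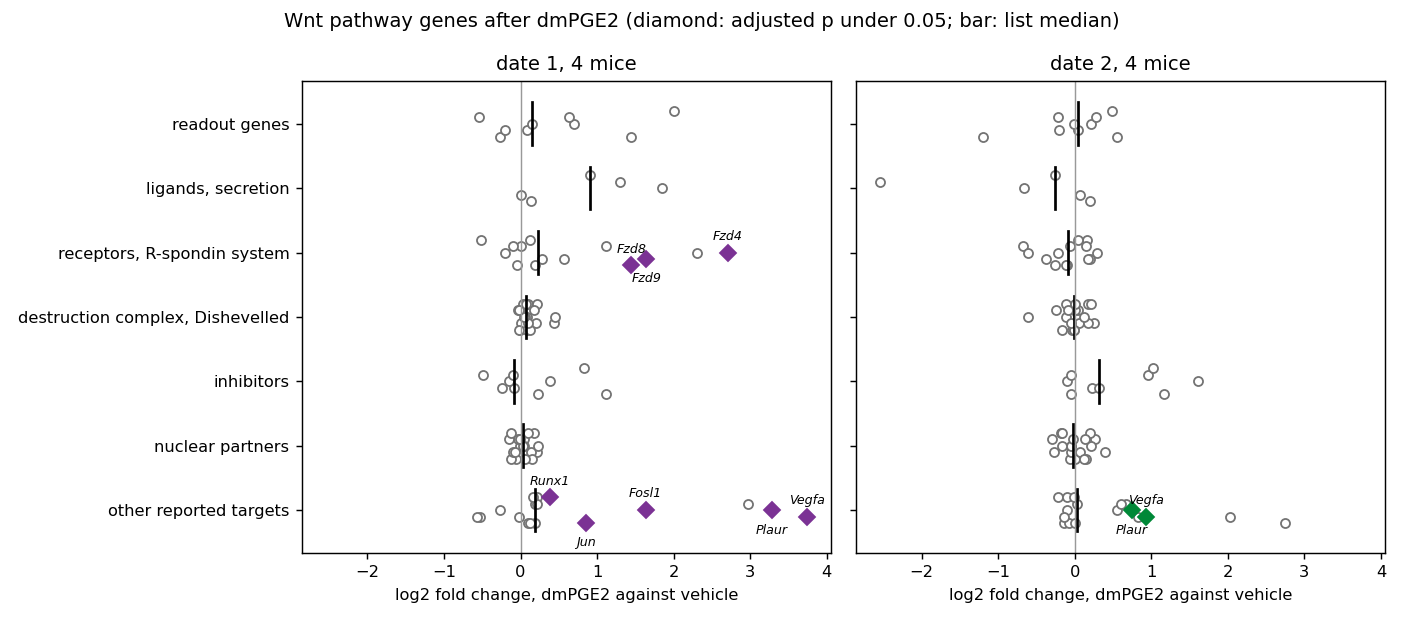
Log2 fold change of dmPGE2 against vehicle for each tested gene of the readout set and of 6 lists of other Wnt genes, on date 1 (left) and date 2 (right). Filled diamonds are called genes and black bars are list medians. The 8 called genes of date 1 are receptors and reported targets, and the readout genes hold no diamond on either date.

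The second comparison set old against young mice. Sox4 was lower in old mice in both arms and was the only readout gene called. With vehicle its levels were 268, 219, 236 and 259 CPM in young mice 477, 478, 483 and 484, and 201, 206.5, 163.5 and 212 CPM in old mice 479, 480, 485 and 486. All 4 young libraries lay above all 4 old libraries, with means of 245.5 ± 22.2 and 195.9 ± 22.0 CPM (SD, n = 4). The log2 fold change was -0.35 ± 0.10 (edgeR adjusted p = 0.0305), which is 1.27-fold lower in old mice. With vehicle, 1 of 9 readout genes was called, against 17.3% of all 13369 genes (8.47% higher and 8.86% lower).

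With dmPGE2 the Sox4 levels were 212, 213, 231 and 206 CPM in the young mice and 174, 172, 146 and 172 CPM in the old mice, in the same order. The groups again did not overlap, with means of 215.3 ± 10.7 and 166.2 ± 13.2 CPM. The log2 fold change was -0.38 ± 0.07 (edgeR adjusted p = 0.00613, 1.305-fold lower in old mice). In this arm 1 of 7 tested readout genes was called, against 14.3% of all 13279 genes (7.85% higher and 6.41% lower), since Nkd1, Axin2 and Rnf43 did not pass the filter on low counts. The libraries of both arms come from the same mice, so the second result is not independent of the first.

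The Sox4 difference with vehicle was called only narrowly. The call was lost without mouse 477, 479, 480, 483, 484 or 485 (log2 -0.37 to -0.26, edgeR adjusted p = 0.0607 to 0.0942) and without the date term (adjusted p = 0.0687). Within date 1 it was -0.27 (adjusted p = 0.293) and within date 2 -0.42 (adjusted p = 0.098). With dmPGE2 the call was kept in all 8 fits without 1 mouse (-0.40 to -0.31) and within date 2 (-0.46, adjusted p = 0.0269), and lost within date 1 (-0.31, adjusted p = 0.121). Old mice also had more stem cell marker RNA (11 of 14 markers higher with vehicle, 0 lower). Of 10 erythroid markers 3 were called lower and 0 higher. Neutrophil markers were lower for 5 and higher for 1 of 14, and megakaryocyte markers higher for 5 of 11. On date 1 the erythroid sum was 1773 to 1966 CPM in young and 1773 to 2032 CPM in old vehicle libraries. On date 2 it was 3590 to 4062 and 2244 to 2334 CPM. The neutrophil sum was 130.4 to 163.5 CPM in young and 264.5 to 304.4 CPM in old vehicle libraries on date 1. On date 2 that sum was 3445 to 4627 and 2175 to 2238 CPM. Over all genes 8.47% were called higher and 8.86% lower with vehicle. Summed stem cell markers were 3830 to 5673 CPM in young and 5408 to 7060 CPM in old vehicle libraries, and the part of these differences in the Sox4 result was not tested.

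The other readout genes were not called by age. Cd44 had a log2 fold change of -0.18 ± 0.08 with vehicle (146.0 ± 23.0 CPM in young and 130.1 ± 8.65 CPM in old mice, edgeR adjusted p = 0.151) and -0.22 ± 0.08 with dmPGE2 (154.1 ± 14.9 and 133.4 ± 17.4 CPM, adjusted p = 0.103). Leaving out mouse 483 brought the Cd44 value with dmPGE2 to -0.28 (adjusted p = 0.0472). Ctnnb1 had 0.13 ± 0.07 with vehicle (527 ± 50.6 CPM in young, 585 ± 27.4 CPM in old mice) and -0.023 ± 0.055 with dmPGE2 (584.5 ± 54.5 and 580.3 ± 68.0 CPM). Its 95% interval with dmPGE2 was -0.14 to 0.098. Fzd7 (-0.21 ± 0.18 and -0.074 ± 0.23) and Znrf3 (0.13 ± 0.32 and -0.11 ± 0.16) were not called either.

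Among the other pathway genes, age differences were larger. Sfrp1, a secreted Wnt inhibitor, had 15.4 ± 9.34 CPM in young and 65.4 ± 10.6 CPM in old vehicle libraries (4.68-fold higher in old, edgeR adjusted p = 0.00073), and was 4.40-fold higher with dmPGE2. It was 1 of 6 inhibitors tested with vehicle and the only one called. The list counts that follow stand beside 8.47% higher and 8.86% lower over all genes with vehicle, and 7.85% and 6.41% with dmPGE2, and several are near those shares. Of 14 receptors and R-spondin genes tested with vehicle, 5 were higher in old mice, among them the Wnt co-receptors Ror2 (4.60-fold) and Ryk (1.58-fold, lost within date 1, adjusted p = 0.122, and without the date term, 0.118), beside Rspo4, Fzd3 and Fzd9, named to complete the count after their values were seen. With dmPGE2, 4 of 13 were higher and 1 lower, and Fzd1 was 3.61-fold higher. Among the reported targets with vehicle, 3 of 15 were higher and 1 lower in old mice. Bmp4, a growth factor, was 8.75-fold higher (2.26 ± 1.14 and 19.2 ± 3.71 CPM), and Abcb1b, a drug efflux pump, 1.66-fold. Birc5, a mitotic survival gene, was 2.60-fold lower in old mice, a call lost without the date term (adjusted p = 0.0847). With vehicle the destruction complex list had 2 of 20 genes higher, the nuclear partners 1 higher and 3 lower of 19, and the ligands 0 of 3.

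**Figure D4:**
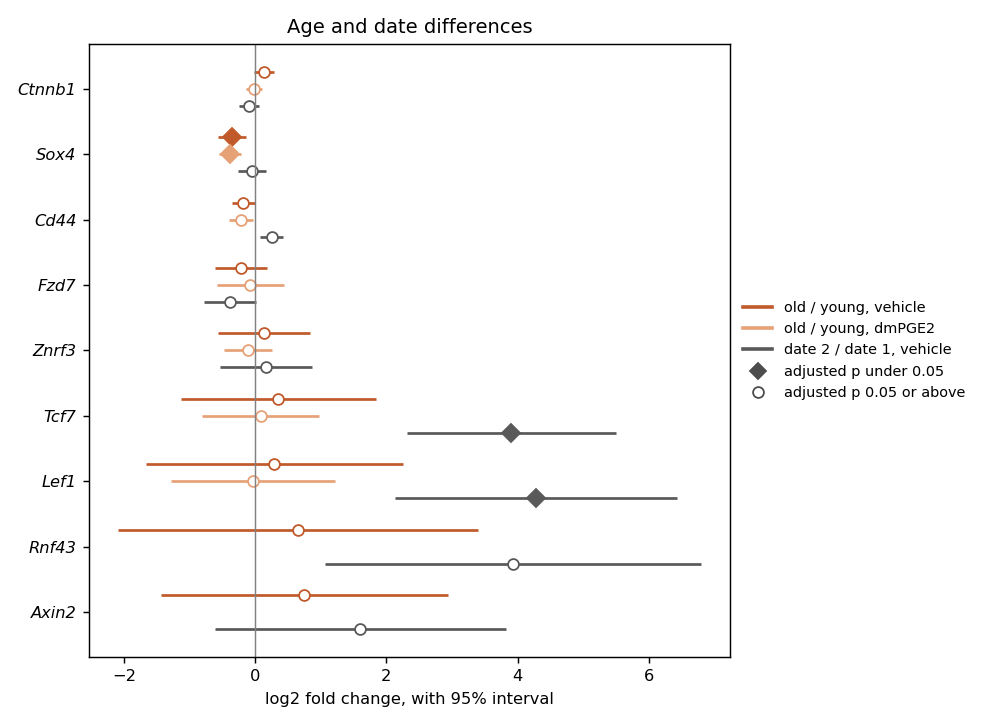
Log2 fold change with 95% interval of each tested readout gene for old against young mice with vehicle (dark orange) and with dmPGE2 (light orange), and for date 2 against date 1 with vehicle (grey). Diamonds have an adjusted p under 0.05. Sox4 is left of 0 in both age comparisons, and Tcf7 and Lef1 are near 4 on the log2 scale between the dates.

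Between the dates, the readout genes with a called difference were the TCF/LEF factors Tcf7 and Lef1. With vehicle Tcf7 had 0.762, 0, 1.95 and 0.495 CPM in mice 477, 478, 479 and 480 of date 1. In mice 483, 484, 485 and 486 of date 2 it had 11.3, 14.7, 9.18 and 9.97 CPM. Lef1 had 0, 0.0538, 0.574 and 0.385 CPM on date 1 and 4.40, 8.20, 1.51 and 4.14 CPM on date 2. For both genes all date 2 libraries lay above all date 1 libraries. The log2 fold change of date 2 over date 1 was 3.91 ± 0.72 for Tcf7 (edgeR adjusted p = 0.00536) and 4.27 ± 0.98 for Lef1 (adjusted p = 0.0169). With that, 2 of 9 readout genes were called, against 11.0% of all 13369 genes (8.0% higher and 3.01% lower).

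The Lef1 call was lost without mouse 477 (3.59, edgeR adjusted p = 0.0536) or 478 (3.72, adjusted p = 0.0688), and within old mice alone neither Lef1 (2.53, adjusted p = 0.190) nor Tcf7 (2.96, adjusted p = 0.132) was called. Rnf43 had a log2 fold change of 3.93 ± 1.30 (edgeR adjusted p = 0.0801), which DESeq2 called, as did the edgeR fits without mouse 479 or 486 and within young mice. Cd44 was higher on date 2 by a log2 fold change of 0.25 ± 0.08 (edgeR adjusted p = 0.0725), with 125.7 ± 5.08 CPM on date 1 and 150.4 ± 18.4 CPM on date 2, and DESeq2 called it as well (adjusted p = 0.0408). Axin2, at 1.60 ± 1.01, was not called (adjusted p = 0.358). Ctnnb1 (-0.098 ± 0.069), Sox4 (-0.052 ± 0.096) and Znrf3 (0.16 ± 0.32) were not called.

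Tcf7 and Lef1 are defining transcription factors of T cells, and T and NK cell markers moved with them. Of 15 such markers tested with vehicle, 11 were higher on date 2 and 0 lower, and the summed level of all 17 markers in the table was 96.3 to 204 CPM on date 1 and 286.5 to 450 CPM on date 2. Cd3e, a subunit of the T cell receptor complex, had 0.0278 ± 0.0321 CPM on date 1 against 10.35 ± 3.82 CPM on date 2 (SD over 4 libraries each). Zap70, Ncr1 and Themis were at 0 counts in all 4 vehicle libraries of date 1. Markers of other blood cells were also higher, with 13 of 14 neutrophil, 9 of 12 monocyte and dendritic cell, 9 of 10 erythroid and 3 of 8 B cell markers called. Of the stem cell markers, 12 of 14 were lower. The part of the cells that carry these markers in the Tcf7 and Lef1 levels was not tested. Over both treatments, Tcf7 had 0 to 1.95 CPM in the 8 libraries of date 1 and 9.18 to 15.1 CPM in those of date 2. Lef1 had 0 to 0.863 CPM and 1.51 to 9.835 CPM.

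**Figure D5:**
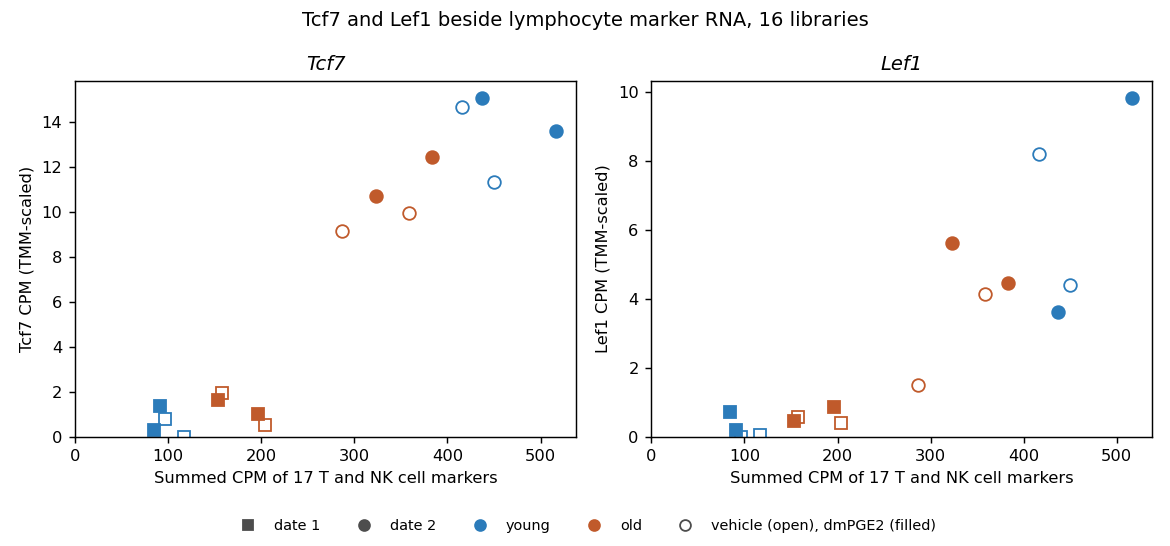
Tcf7 (left) and Lef1 (right) in CPM against the summed CPM of 17 T and NK cell markers in each of the 16 libraries, squares for date 1 and circles for date 2, open for vehicle and filled for dmPGE2. The libraries of the dates form separate clusters, with marker sums up to 204 CPM on date 1 and from 286.5 CPM on date 2, and no correlation is given across them.

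Other pathway genes also differed between the dates with vehicle. Higher on date 2 were Plaur (5.45-fold), Vegfa (4.64-fold), Fzd4 (3.79-fold), Id2, a reported target and inhibitor of helix-loop-helix factors (2.22-fold), Birc5 (1.94-fold) and Fzd8 (1.85-fold). In all, 5 of 15 reported targets were higher, and 3 of 14 receptors higher and 2 lower. Of 20 destruction complex genes 1 was lower, and of 19 nuclear partners 1. Over all genes 8.0% were called higher and 3.01% lower, so these last 2 counts are near the share. The Birc5 call was lost within young and within old mice (edgeR adjusted p = 0.0633 and 0.05002) and that of Fzd8 within old mice (adjusted p = 0.209). Plaur, Vegfa, Fzd4 and Fzd8 also rose with dmPGE2 on date 1, a comparison that shares its vehicle libraries of date 1 with this one.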

How the data were processed

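The values used were whole-number read counts per gene, deposited by the authors without normalization, for 16 libraries of mouse stem cells (RNeasy Plus Mini and Nextera XT, per the labels' protocols). The submitters' processing notes list the build mm10 with the tools featureCounts, Subread 1.5.1 and STAR 2.5.2b, and give no roles. No source used here states the annotation or the strand of counting. All 14829 genes exceeded 0.5 CPM in at least 2 libraries, so lower genes had been removed upstream. The table also held 2504 empty lines, and 0 of its value columns were left unmatched to a sample.

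Samples were grouped by age and treatment from the labels. Counts were tested in R 4.3.3 with edgeR 4.0.16, by its quasi-likelihood test (TMM, filterByExpr by group with its minimum count of 10, robust dispersion), adjusted over all genes tested and called under 0.05. For dmPGE2, all 16 libraries entered a fit with mouse as block and a dmPGE2 term for each age (6 residual degrees of freedom) or for each age and date (4). Age and date were tested in the 8 libraries of an arm, with terms for both (5 residual degrees of freedom). A standard error is the size of the log2 fold change divided by the root of its F statistic. The pairing comes from the study design, which split each mouse's cells in 2. As deviations from their group mean, the libraries of a mouse correlated at 0.481 to 0.734 over 12977 genes. As deviations from the mean of their group on their own date, they correlated at 0.0272 to 0.254.

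The alternatives were RLE size factors, no filter, DESeq2 1.42.0, limma-voom (limma 3.58.1), no replicate block, leaving out each mouse, other date terms, and fits within a date or an age. A left-out mouse leaves 1 mouse of its age and date, which is then assumed to vary like the others. The named genes were the 10 readout genes, up to 6 called pathway genes per comparison by smallest p, and Crem and Nr4a1. These members, the 6 pathway lists (125 genes), the 8 marker lists and the comparisons were chosen with earlier results of these data known. The dates were tested apart because an earlier analysis of these data found the response and the cell make-up to differ by date. The p-values by date are thus not from comparisons chosen before the data were seen. The 8 mice are separate animals, and for age and date the p-values measure the spread between mice. For dmPGE2, and for its differences by age or date, mouse was the block. Those p-values measure how the difference between the libraries of a mouse varied from mouse to mouse. In the fit with a dmPGE2 term for each age only, that variation includes the difference in response between the dates.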

Additional observations from a re-analysis of the deposited data

Results flagged for a closer look

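In a group of 4, a library was set apart when its gap to the nearest other exceeded Dixon's 95% critical share of the range, which chance gives in about 1 of 20 groups. Of 40 groups (10 genes in 4 groups) 4 met this, and 3 of the 4 were the old dmPGE2 library of mouse 485. Axin2 had 2.05 CPM (30 counts) there and 0.308 to 0.400 CPM in the other old dmPGE2 libraries. Nkd1 had 2.12 CPM (31 counts) against 0 to 0.333 CPM. Sox4 had 146.4 CPM (2140 counts) against 172 to 174 CPM. Without mouse 485, Sox4 in old against young mice with dmPGE2 was still called. Nkd1 in the old vehicle library of mouse 479 had 0.459 CPM (8 counts) against 0 to 0.055 CPM in the others.

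The response to dmPGE2 differed between the dates by a test of the difference itself (edgeR, date 2 minus date 1 on the log2 scale) for 7 of the named genes. The difference was -5.27 for Nr4a1 (adjusted p = 1.74e-10), -2.81 for Vegfa (1.61e-06), -2.54 for Plaur (5.88e-06), -0.86 for Jun (0.00033, and 0.592 without the replicate block), -2.42 for Fzd4 (0.000495), -1.55 for Fzd8 (0.00102) and -1.44 for Fzd9 (0.0242). The vehicle levels of Vegfa, Plaur, Fzd4 and Fzd8 were higher on date 2 than on date 1, as given in the report. So were those of Nr4a1 (27.9-fold, edgeR adjusted p = 1.6e-06) and Fzd9 (1.865-fold, adjusted p = 0.0274). Jun, with 460.5 ± 298 and 976 ± 393 CPM (SD, n = 4 mice), was not called there. The part of the vehicle levels in these differences was not tested.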

How the results depend on the processing

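Of 1869 values of single genes under alternatives, 1709 kept their direction and side of the threshold, 49 lost a call, 20 gained one, 91 changed sign without a call in either fit and 0 reversed a call. Readout genes called: over all mice 1 by DESeq2 (0 by edgeR), on date 1 1 by limma-voom, for age with vehicle 0 without the date term, 0 within date 1 and 0 within date 2, for age with dmPGE2 0 within date 1, and between the dates 4 by DESeq2 and 0 within old mice. By edgeR, 0.610% of all genes were called over all mice, 2.93% on date 1 and 11.0% between the dates. For age the share was 17.3% with vehicle and 14.3% with dmPGE2. No count over all genes is given for limma-voom on date 1 or for DESeq2 between the dates. The readout counts of those fits thus have no share beside them. Genes called over all mice: 85, and 39 without the replicate block, 443 by DESeq2, 225 by limma-voom and 347 with a term for each age and date. In old mice, in young mice and for the age difference the count was 0, and 210, 257 and 1 by edgeR with a term for each age and date, and 114, 277 and 17 by DESeq2. On date 2 the count was 10 without the replicate block and 133 by DESeq2 (54), and DESeq2 gave 246 for the date difference (151). Without the replicate block Sox4 and Fzd7 over all mice had adjusted p of 0.248 and 0.566 in place of 0.078 and 0.171. For age with vehicle (2318) it was 971 without the date term, 865 within date 1 and 1057 within date 2, and with dmPGE2 (1894) 804, 774 and 1097. Between the dates (1472) it was 468 within old mice. Leaving out 1 mouse at a time gave 0 to 166 genes over all mice, 0 to 4 in young mice, 0 to 2 for the age difference, 236 to 446 on date 1, 39 to 57 on date 2, 100 to 160 for the date difference, 902 to 1346 between the dates, 1448 to 2129 for age with vehicle and 1104 to 2167 with dmPGE2. It gave 0 to 2 readout genes on date 1, 0 to 1 for age with vehicle, 1 to 2 with dmPGE2 and 1 to 3 between the dates. Depth limits Axin2, Nkd1, Rnf43, Lef1 and Tcf7 on date 1.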
